A study of Mus musculus with 12 samples.

Results

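The chaperone and the enzymes that fold and crosslink collagen were followed as ES cells were turned into XEN-like cells, with and without Sox7. They were 10 genes: the chaperone Serpinh1, the prolyl hydroxylases P4ha1 and P4ha2, the lysyl hydroxylases Plod1, Plod2 and Plod3, and the lysyl oxidases Lox, Loxl1, Loxl2 and Loxl3. They were taken by their name in the annotation of the array, which held 34836 gene names, and all 10 were found, with 17 of the 55681 probes. Of these, 13 probes of 8 genes were bright enough to be tested. The data came from 12 Agilent arrays with 1 colour, and each of the 4 groups had 3 of them. All cells descended from the mouse ES line EB3 and carried Gata6-GR, which is mouse Gata6 joined to the ligand-binding part of the human glucocorticoid receptor and driven by the CAG promoter, so that dexamethasone (Dex) switches it on. The Sox7 (+/-) cells were 1 targeted clone, in which a PGK-pac∆TK cassette stands in place of the coding region on 1 chromosome, and the Sox7 (-/-) cells were selected from that clone with a high dose of puromycin. Sox7 (+/-) ES cells and Sox7 (-/-) ES cells were sampled at day 4 without Dex, and Sox7 (+/-) XEN-like cells and Sox7 (-/-) XEN-like cells were sampled after 4 days with Dex, all in ES medium with LIF. No group was wild type for Sox7, and every group carried the transgene, so effects of Gata6 and of Dex itself cannot be told apart. Genotype also goes with cell line and with the selection by puromycin. Loss of Sox7 therefore cannot be told apart from other differences between the lines, and "without Sox7" below only names the Sox7 (-/-) cells.

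Collagen chains are modified in the endoplasmic reticulum before they are secreted. The prolyl hydroxylases, whose catalytic subunits are P4ha1 and P4ha2, turn prolines into hydroxyproline, which keeps the triple helix stable at body temperature, and the lysyl hydroxylases of the Plod family modify lysines that later carry sugars and crosslinks. Serpinh1, also called Hsp47, binds the folded helix and goes with it towards the Golgi. Outside the cell, the copper enzymes of the Lox family oxidize lysines of collagen and elastin, which starts the crosslinks, and Loxl2 is known to act on collagen IV. Primitive endoderm and its parietal derivative, which XEN cells resemble, lay down a thick basement membrane built on collagen IV and laminin.

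A value below is a relative signal, the processed signal of a probe divided by the 75th percentile of its own array. A gene was read by its brightest probe. A difference between groups is on the log2 scale with its standard error (SE) from limma, fitted to all 12 arrays and 25940 probes, and calls needed both a change over 2-fold and a p, adjusted by Benjamini-Hochberg, under 0.05. The 75th percentile lay between 252.3 and 415.9 intensity units, 41.7% to 52.3% of spots passed the scanner's test of being well above background, and no spot was saturated. Sox7 fitted its labels, at 2.18 to 6.88 on the 6 Sox7 (+/-) arrays and not well above background on any of the 6 Sox7 (-/-) arrays. All 5 ES cell markers fell with Dex in both genotypes, with Nanog and Sox2 not well above background on any XEN-like array, and 6 of 8 primitive endoderm markers rose in Sox7 (+/-) cells and 7 of 8 in Sox7 (-/-) cells. Gata6 itself did not pass the test, at 0.27 and 0.37 (adjusted p = 0.23 and 0.111, limma). Its probe may also read RNA of the Gata6-GR transgene, which every group carried, and this was not tested. In another ES line with Gata6-GR, the study reported by qPCR that endogenous Gata6 rose after Dex. By Western blot it also reported induction of Gata6 protein in XEN-like cells without Sox7, made from its Sox7-targeted lines with Gata6-GR. Of the visceral endoderm markers, Afp and Apoa1 were not well above background in any group. The 3 tested were Ttr, Hnf4a and Cdh1. With Dex they gave 1 higher and 1 lower in Sox7 (+/-) cells, and 2 higher and 1 lower in Sox7 (-/-) cells. Of 9 fibroblast markers, Dcn and Lum were not well above background in any group. With Dex, the 5 tested gave 3 lower in Sox7 (+/-) cells, and 1 higher and 2 lower in Sox7 (-/-) cells. The summed relative signal of the 9 was 3.98 to 4.90 on the ES arrays and 0.929 to 1.38 on the XEN-like arrays. The arrays lay on 2 slides: 1 slide held both Sox7 (+/-) groups with Sox7 (-/-) XEN-like arrays 2 and 3, and the other held the Sox7 (-/-) ES arrays with Sox7 (-/-) XEN-like array 1. Whether the 3 arrays of a group were separate cultures is not given in the sources used here, and the sources of the 3 Sox7 (+/-) ES samples all carry replicate number 1, so p-values measure only the spread between these arrays.

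The brightest probes lie on mm9, in the positions given with the array, at chr7:106493971-106494030 for Serpinh1, chr10:58835625-58835684 for P4ha1, chr11:53945032-53945091 for P4ha2, chr9:92502483-92502542 for Plod2, chr5:137472079-137472138 for Plod3, chr9:58138570-58138629 for Loxl1 and chr14:70095254-70095313 for Loxl2. The 60-base probe of Plod1 is given as chr4:147290037-147291457, a span longer than the probe. Loxl2 lies on the same chromosome as Sox7. No mm9 gene annotation was used here, so exons and UTRs under the probes are not given.

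Promoters of 5 members, Serpinh1, P4ha1, P4ha2, Plod1 and Plod3, were in the RefSeq table for the build GRCm38.p6. Those of P4ha1 and P4ha2 and of Plod1 and Plod3 are shown because, within each pair of related enzymes, the rise with Dex was smaller without Sox7 for the first gene and larger for the other. At the brightest probes these differences in rise were under 2-fold and not called, and they depended on the scaling of the arrays, as given below. Each is the 250 bases before the annotated start, 5′ to 3′ on the strand of the gene, and capitals mark ACGTG or GCGTG, the core letters of the hypoxia response element, on either strand (CACGT or CACGC where on the other strand).
P4ha1, chr10:59323046-59323295, plus strand: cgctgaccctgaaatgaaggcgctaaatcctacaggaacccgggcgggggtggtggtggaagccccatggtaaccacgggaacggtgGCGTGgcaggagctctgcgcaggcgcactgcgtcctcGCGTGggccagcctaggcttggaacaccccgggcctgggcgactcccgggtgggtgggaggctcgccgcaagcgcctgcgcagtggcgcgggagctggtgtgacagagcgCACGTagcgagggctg
P4ha2, chr11:54100674-54100923, plus strand: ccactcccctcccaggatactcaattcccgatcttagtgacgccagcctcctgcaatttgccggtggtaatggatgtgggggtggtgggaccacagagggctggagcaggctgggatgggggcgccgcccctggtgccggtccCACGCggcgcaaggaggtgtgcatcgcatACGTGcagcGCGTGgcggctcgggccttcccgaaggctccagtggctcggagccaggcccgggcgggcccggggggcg
Plod1, chr4:147936777-147937026, minus strand: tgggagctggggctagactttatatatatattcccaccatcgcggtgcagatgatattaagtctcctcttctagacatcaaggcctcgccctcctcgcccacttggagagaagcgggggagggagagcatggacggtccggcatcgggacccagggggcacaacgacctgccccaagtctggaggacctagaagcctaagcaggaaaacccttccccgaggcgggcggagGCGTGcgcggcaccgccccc
Plod3, chr5:136986769-136987018, plus strand: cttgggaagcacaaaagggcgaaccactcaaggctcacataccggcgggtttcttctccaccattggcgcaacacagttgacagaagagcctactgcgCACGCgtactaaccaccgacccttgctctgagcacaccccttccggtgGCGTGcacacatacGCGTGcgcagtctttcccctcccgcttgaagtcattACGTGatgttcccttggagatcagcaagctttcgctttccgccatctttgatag
The letters occurred 3 times before P4ha1, 3 times before P4ha2, 1 time before Plod1 and 4 times before Plod3, and 1 time before Serpinh1, whose window is not printed, with no match overlapping another. Of 32851 promoters of this length in the table, 38.6% held them. They hold a CpG, and the 5 windows were 55.6% to 70.0% GC against a median of 52.4% over all promoters. The letters GATAA, a core of the sequence bound by Gata factors, and ACAAT, a core of that bound by Sox factors, were in none of the 5 windows on either strand and in 22.6% and 27.7% of all promoters. A match is a description of letters and not a binding site.

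The first question was how these genes changed as Gata6-GR was switched on. In Sox7 (+/-) cells, 7 of the 8 tested members rose and 1, Loxl1, fell, where 11.0% of all tested probes were called higher and 14.0% lower. In Sox7 (-/-) cells the same 7 rose and Loxl1 fell, against 14.6% of all probes called higher and 14.2% lower. The median log2 change of the 8 was 2.11 in Sox7 (+/-) cells and 2.47 in Sox7 (-/-) cells, beside 0.16 and 0.07 over all probes. The rises reached from 1.58 (P4ha2) to 3.53 (Loxl2) in Sox7 (+/-) cells and from 1.36 (P4ha1) to 4.14 (Loxl2) in Sox7 (-/-) cells. In bulk RNA, fewer cells of a type and less RNA per cell cannot be told apart.

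**Figure D1:**
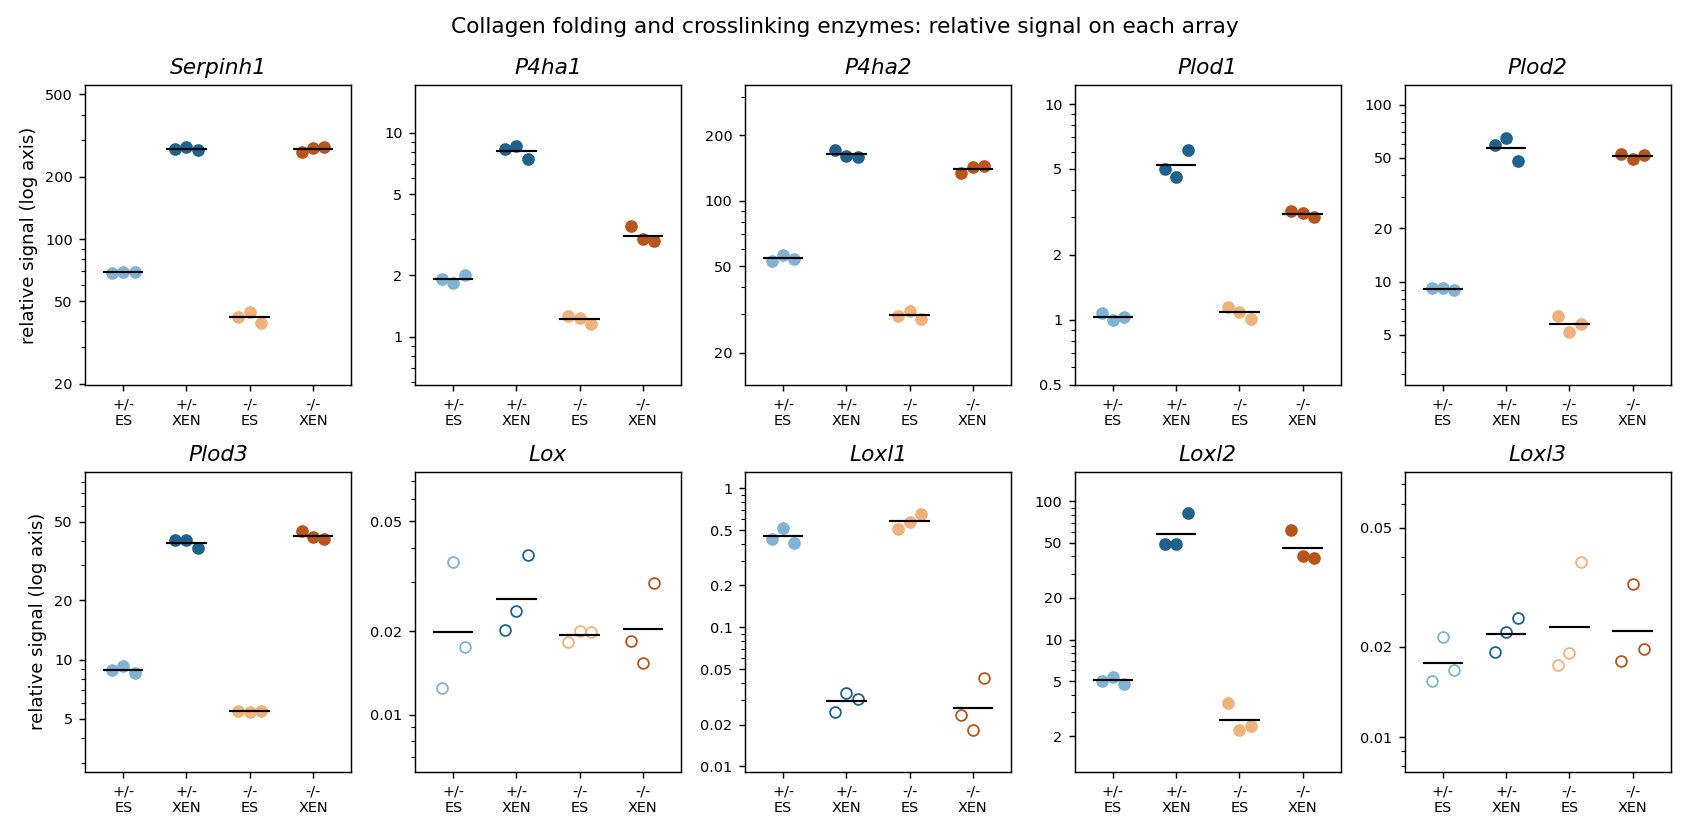
Relative signal (log axis, each panel with its own range) of the brightest probe of each of the 10 genes on the 12 arrays. Points are arrays, lines are geometric means of 3 arrays, and open points were not well above background: 7 genes sit higher on every XEN-like array than on every ES array of the same genotype, Loxl1 sits lower, and Lox and Loxl3 are open on all 12.

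Serpinh1, the collagen chaperone, read 68.8, 69.5 and 69.6 on the Sox7 (+/-) ES arrays and 272, 278 and 270.1 on the Sox7 (+/-) XEN-like arrays. In Sox7 (-/-) cells it read 42.1, 44.5 and 39.4 without Dex and 263, 277 and 278 with it. The 2 XEN-like groups overlapped, whereas every Sox7 (-/-) ES array was below every Sox7 (+/-) ES array. Its log2 change with Dex was 1.98 (SE 0.06, adjusted p = 2.31e-09, limma) in Sox7 (+/-) cells and 2.70 (SE 0.06, adjusted p = 1.91e-10, limma) in Sox7 (-/-) cells, which is 3.94-fold and 6.49-fold.

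Of the prolyl hydroxylase subunits, P4ha1 read 1.92, 1.83 and 2.01 on the Sox7 (+/-) ES arrays and 8.33, 8.55 and 7.46 on the Sox7 (+/-) XEN-like arrays. P4ha1 in Sox7 (-/-) cells read 1.26, 1.23 and 1.16 without Dex and 3.49, 2.99 and 2.93 with it. No 2 groups of P4ha1 overlapped, and the Sox7 (+/-) XEN-like arrays stood highest. The log2 change was 2.08 (SE 0.09, adjusted p = 1.58e-08, limma) in Sox7 (+/-) cells and 1.36 (SE 0.09, adjusted p = 2.77e-07, limma) in Sox7 (-/-) cells. P4ha2 read 52.8, 56.2 and 54.0 on the Sox7 (+/-) ES arrays and 169.9, 161 and 158 on the Sox7 (+/-) XEN-like arrays. In Sox7 (-/-) cells P4ha2 read 29.5, 31.2 and 28.4 without Dex and 134, 142 and 144 with it. Here too each genotype's XEN-like arrays stood above its ES arrays, but the larger change was in Sox7 (-/-) cells. It was 1.58 (SE 0.06, adjusted p = 1.35e-08, limma) in Sox7 (+/-) cells and 2.24 (SE 0.06, adjusted p = 8.92e-10, limma) in Sox7 (-/-) cells.

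Of the lysyl hydroxylases, Plod1 read 1.07, 0.995 and 1.03 on the Sox7 (+/-) ES arrays and 5.01, 4.61 and 6.13 on the Sox7 (+/-) XEN-like arrays. Plod1 in Sox7 (-/-) cells read 1.15, 1.09 and 1.01 without Dex and 3.18, 3.12 and 2.99 with it. The ES groups of Plod1 overlapped and the XEN-like groups did not. Its log2 change was 2.34 (SE 0.10, adjusted p = 2.12e-08, limma) in Sox7 (+/-) cells and 1.52 (SE 0.10, adjusted p = 4.06e-07, limma) in Sox7 (-/-) cells. Plod2, which hydroxylates lysines in the collagen telopeptides, read 9.16, 9.26 and 8.97 on the Sox7 (+/-) ES arrays and 59.2, 64.6 and 48.2 on the Sox7 (+/-) XEN-like arrays. Plod2 in Sox7 (-/-) cells read 6.36, 5.21 and 5.77 without Dex and 52.5, 49.5 and 51.8 with it. The XEN-like groups of Plod2 overlapped. The log2 change was 2.64 (SE 0.11, adjusted p = 1.43e-08, limma) and 3.15 (SE 0.11, adjusted p = 3.04e-09, limma) in the same order of genotypes. Plod3, which also adds sugars to hydroxylysine, read 8.81, 9.25 and 8.52 on the Sox7 (+/-) ES arrays and 40.3, 40.2 and 36.8 on the Sox7 (+/-) XEN-like arrays. In Sox7 (-/-) cells Plod3 read 5.47, 5.39 and 5.50 without Dex and 44.9, 41.9 and 40.9 with it. Its Sox7 (-/-) ES arrays were its lowest, and its Sox7 (-/-) XEN-like arrays its highest. The log2 change was 2.14 (SE 0.07, adjusted p = 2.07e-09, limma) in Sox7 (+/-) cells and 2.96 (SE 0.07, adjusted p = 1.61e-10, limma) in Sox7 (-/-) cells.

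The lysyl oxidase family was split. Loxl2 read 5.03, 5.39 and 4.77 on the Sox7 (+/-) ES arrays and 49.5, 49.3 and 82.0 on the Sox7 (+/-) XEN-like arrays. Loxl2 in Sox7 (-/-) cells read 3.46, 2.21 and 2.37 without Dex and 62.4, 40.5 and 39.0 with it. Its log2 change was the largest rise of the 8 in each genotype, at 3.53 (SE 0.25, adjusted p = 7.72e-07, limma) in Sox7 (+/-) cells and 4.14 (SE 0.25, adjusted p = 1.81e-07, limma) in Sox7 (-/-) cells. Sox7 (+/-) XEN-like array 3 and arrays 1 of both Sox7 (-/-) groups stood above the others of their groups at this probe. The second probe of Loxl2 read 43.6, 46.2 and 40.9 on the Sox7 (+/-) XEN-like arrays and 30.3, 32.7 and 32.3 on the Sox7 (-/-) XEN-like arrays, so its array 3 and array 1 did not stand above the others. Loxl2 rose at all 3 of its probes, by 3.11 to 3.53 in Sox7 (+/-) cells and by 4.00 to 4.49 in Sox7 (-/-) cells.

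Loxl1, an oxidase known for its role in elastic fibres, went the other way. It read 0.433, 0.520 and 0.406 on the Sox7 (+/-) ES arrays and 0.512, 0.575 and 0.657 on the Sox7 (-/-) ES arrays, and it was not well above background on any of the 6 XEN-like arrays. The measured log2 change was -3.94 in Sox7 (+/-) cells and -4.45 in Sox7 (-/-) cells (adjusted p = 6.69e-07 and 2.06e-07, limma). As a bound, the mean of the ES arrays set against the lowest signal well above background on the XEN-like arrays, or the probe's own signal where higher, Loxl1 was at least 4.80-fold lower with Dex in Sox7 (+/-) cells and at least 7.73-fold lower in Sox7 (-/-) cells. Its second probe, dimmer, gave at least 1.53-fold and at least 2.52-fold. Lox, the best known member of the family, and Loxl3 were not well above background on any of the 12 arrays, at both probes of Lox and the 1 probe of Loxl3, with relative signals from 0.0124 to 0.0377 for Lox and from 0.0153 to 0.0384 for Loxl3. No change of either was tested.

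**Figure D2:**
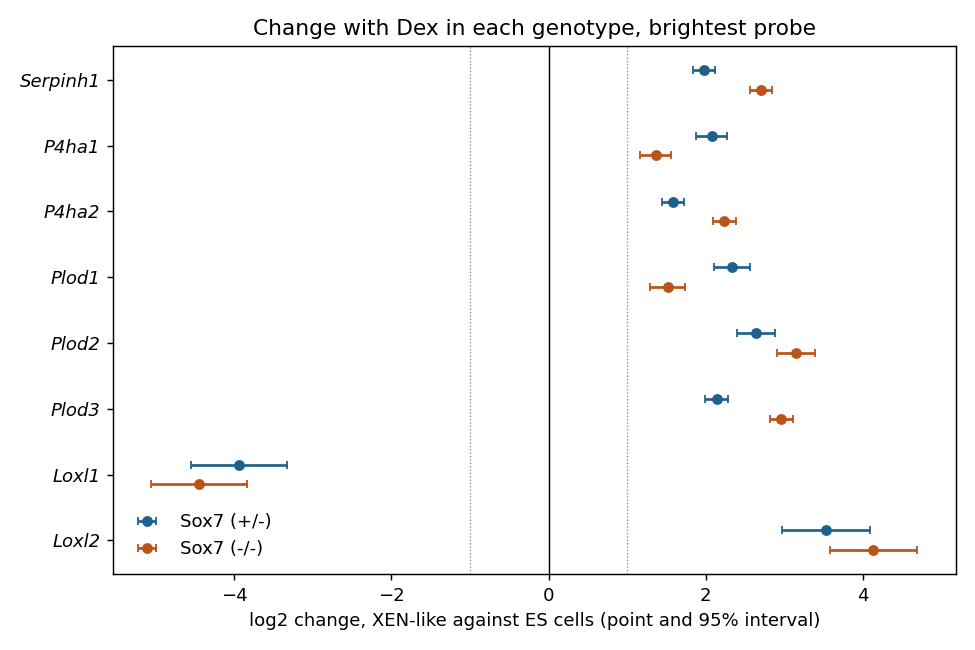
Log2 change with Dex of the brightest probe of the 8 tested members in Sox7 (+/-) and Sox7 (-/-) cells, with 95% intervals from limma. Dotted lines mark 2-fold, and Loxl1 had no XEN-like array well above background: 7 members lie to the right of 2-fold in both genotypes, with the Sox7 (+/-) point farther right for P4ha1 (2.08 against 1.36) and Plod1 (2.34 against 1.52) and the Sox7 (-/-) point for the other 5.

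The next question was whether XEN-like cells without Sox7 differed from those with 1 copy. Only P4ha1 was called, lower in Sox7 (-/-) cells, where 3.65% of all probes were called lower and 3.86% higher. The difference was -1.37 (SE 0.09, adjusted p = 3.29e-06, limma), or 2.59-fold lower, and the second probe of P4ha1 gave -1.60 (SE 0.10, adjusted p = 3.52e-06, limma). That probe read 1.28, 1.30 and 1.07 on the Sox7 (+/-) XEN-like arrays and 0.394, 0.381 and 0.427 on the Sox7 (-/-) XEN-like arrays. Within the slide that held both groups, without Sox7 (-/-) XEN-like array 1, the difference of P4ha1 was -1.45 (adjusted p = 1.07e-05, limma). It was -0.92 (adjusted p = 3.75e-05, limma), under 2-fold, in the deposited table, whose median of all probes moved by 0.34 in this comparison. Counted by the adjusted p alone, with no minimum fold, 3 members were lower and none higher, against 15.4% and 19.1% of all probes. The others were Plod1 at -0.75 (SE 0.10, adjusted p = 0.000445, limma), with its second probe at -0.87, and P4ha2 at -0.22 (SE 0.06, adjusted p = 0.0272, limma). P4ha2 missed the threshold within the slide, at -0.19 (adjusted p = 0.0891, limma), and Plod1 in the deposited table, at -0.29 (adjusted p = 0.168, limma).

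The other members did not pass the test between the XEN-like groups at their brightest probes. Their intervals bound what could have been missed only under this scaling of the arrays. For Serpinh1 the 95% interval of the log2 difference was -0.14 to 0.14 around -0.00, for Plod3 it was -0.03 to 0.27 around 0.12, and for Plod2 it was -0.39 to 0.09 around -0.15. The brightest probe of Loxl2 had the wide interval of -0.90 to 0.22 around -0.34. Its other 2 probes were tighter and below 0, at -0.45 (SE 0.08, adjusted p = 0.00174, limma) and -0.42 (SE 0.11, adjusted p = 0.0132, limma), both under 2-fold. Serpinh1, P4ha2, Plod2 and Loxl1 changed sign in this comparison under other scalings of the arrays, and Loxl2 at its brightest probe changed sign in the deposited table. In the deposited table, whose median of all probes moved by 0.34, Serpinh1 was at 0.47 and Plod3 at 0.46. Both lay outside the intervals above (adjusted p = 0.0238 and 0.0266, limma), as did Plod2 at 0.30 (adjusted p = 0.17, limma). Under the spike-in controls the median of all probes moved by 0.25, and the difference was -1.12 for P4ha1 and -0.50 for Plod1 (adjusted p = 0.000393 and 0.00874, limma). Markers of other cells differed between the same XEN-like groups. The 5 visceral endoderm markers summed to a relative signal of 9.66 to 12.7 on the Sox7 (+/-) XEN-like arrays. On the Sox7 (-/-) XEN-like arrays the sum was 29.8 to 33.5, and on the ES arrays it was 16.5 to 17.5. All 3 tested ones, Ttr, Hnf4a and Cdh1, were called higher in Sox7 (-/-) XEN-like cells. The 5 ES cell markers summed to 3.39 to 4.74 and 11.1 to 14.4 in the same XEN-like groups, with Esrrb and Zfp42 called higher. The 4 parietal endoderm markers were all below 0 and none was called. Their part in the differences of P4ha1 and Plod1 was not tested.

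In untreated ES cells, most members were lower without Sox7, by less than 2-fold. None was called by its brightest probe (limma), where 6.67% of all probes were called lower and 1.95% higher. By the adjusted p alone 6 members were lower and none higher, against 16.9% and 28.2% of all probes. The differences were -0.72 for Serpinh1 (SE 0.06), -0.66 for P4ha1 (SE 0.09), -0.87 for P4ha2 (SE 0.06), -0.66 for Plod2 (SE 0.11), -0.70 for Plod3 (SE 0.07) and -0.95 for Loxl2 (SE 0.25), with adjusted p between 6e-06 and 0.0116 (limma). The median of the 8 tested members was -0.68, beside 0.10 over all probes. Plod1 and Loxl1 did not pass the test, at 0.07 (95% interval -0.16 to 0.29) and 0.36 (95% interval -0.25 to 0.97).

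Loxl2 was called lower in ES cells without Sox7 at its other 2 probes. The second probe read 4.72, 5.49 and 4.96 on the Sox7 (+/-) ES arrays and 1.92 to 2.04 on the Sox7 (-/-) ES arrays, a difference of -1.35 (SE 0.08, adjusted p = 9.7e-07, limma). The other read 2.84, 3.27 and 2.82 against 0.820, 0.952 and 0.975, a difference of -1.70 (SE 0.11, adjusted p = 1.9e-06, limma). At each of these probes no Sox7 (-/-) ES array reached a Sox7 (+/-) ES array. Without Sox7 (-/-) ES array 1, the brightest probe passed 2-fold as well, at -1.14 (adjusted p = 0.00785, limma). The ES groups lay on different slides, so genotype and slide are separated here only through Sox7 (-/-) XEN-like array 1. With slide as a block, Serpinh1 was at -0.64, P4ha1 at -0.89, P4ha2 at -0.78, Plod2 at -0.72, Plod3 at -0.82 and Loxl2 at -1.60, with adjusted p between 0.00278 and 0.0534 (limma), and Plod2 was the one above 0.05. Plat and Thbd, markers of parietal endoderm, were called lower in the same ES comparison, at -1.44 and -2.37 (Thbd well above background on 2 of 3 Sox7 (-/-) ES arrays), and all 5 ES cell markers were above 0, with Zfp42 and Esrrb called higher. The summed relative signal of 4 parietal endoderm markers was 866 to 897 on the Sox7 (+/-) ES arrays and 734 to 835 on the Sox7 (-/-) ES arrays. Their part in the differences of the members was not tested.

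**Figure D3:**
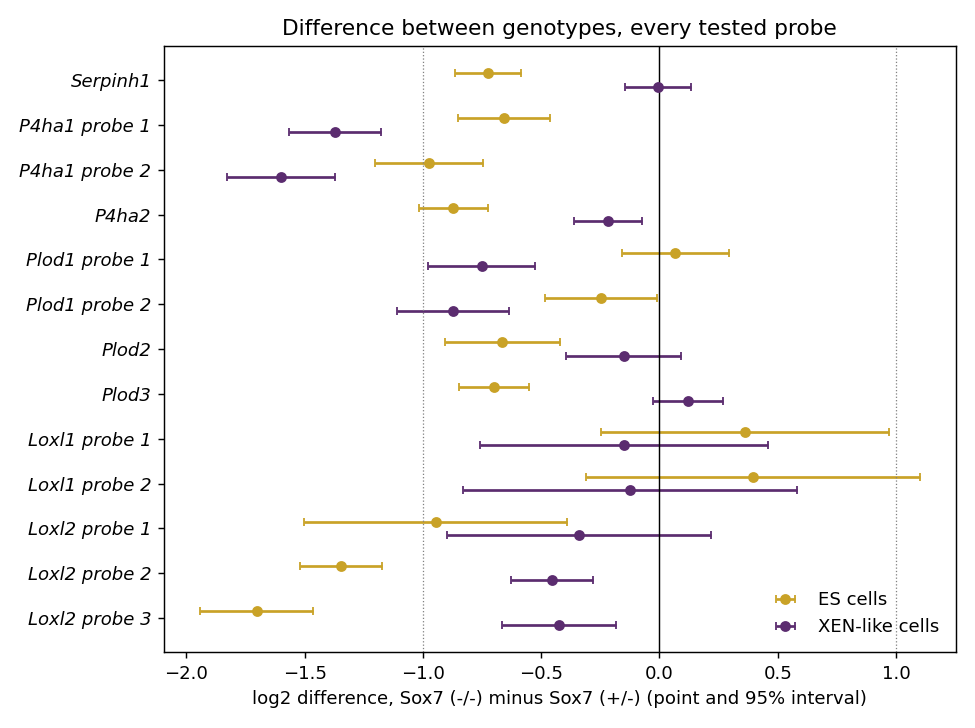
Log2 difference, Sox7 (-/-) minus Sox7 (+/-), of all 13 tested probes of the members in ES cells and in XEN-like cells, with 95% intervals from limma. Dotted lines mark 2-fold: both P4ha1 probes lie beyond it in XEN-like cells (-1.37 and -1.60), and the other Loxl2 probes in ES cells (-1.35 and -1.70).

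The same ES and XEN-like arrays also gave the last comparison, whether the change with Dex itself differed between the genotypes. No member was called by its brightest probe (limma), where 6.62% of all probes were called higher and 3.17% lower. By the adjusted p alone, 4 members had the larger rise in Sox7 (-/-) cells and 2 the smaller, against 12.3% and 14.9% of all probes. The larger rises were those of Serpinh1, by 0.72 (SE 0.09, adjusted p = 0.000278, limma), P4ha2, by 0.65 (SE 0.09, adjusted p = 0.000643, limma), Plod3, by 0.82 (SE 0.09, adjusted p = 0.000175, limma), and Plod2, by 0.51 (SE 0.15, adjusted p = 0.0329, limma). All of these but Plod2 kept an adjusted p under 0.05 with slide as a block, where Plod2 was at 0.55 (adjusted p = 0.093, limma). The smaller rises were those of P4ha1, at -0.71 (SE 0.12, adjusted p = 0.00225, limma), and Plod1, at -0.82 (SE 0.14, adjusted p = 0.00251, limma). Their second probes gave -0.63 for each gene (adjusted p = 0.0105 and 0.0122, limma).

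These differences moved with the scaling of the arrays, since the difference in response of the median probe was -0.09 here, 0.32 with arrays scaled by spike-in controls and 0.24 in the table as deposited. P4ha1 and Plod1 then missed the threshold, at -0.31 and -0.41 under the spike-ins (adjusted p = 0.341 and 0.101, limma) and at -0.32 and -0.39 in the deposited table (adjusted p = 0.424 and 0.304, limma), while Serpinh1, P4ha2 and Plod3 passed 2-fold in both. Relative to the median of all probes, the difference was -0.62 for P4ha1, -0.73 for Plod1, 0.81 for Serpinh1, 0.74 for P4ha2, 0.60 for Plod2 and 0.91 for Plod3. The spike-ins cannot alter these values, since they shift all probes of an array alike. In the deposited table, whose background was not subtracted, they were -0.56 for P4ha1, -0.63 for Plod1, 0.93 for Serpinh1, 0.91 for P4ha2, 0.75 for Plod2 and 0.95 for Plod3. Loxl2 was at 0.61 with an interval of -0.18 to 1.39 (adjusted p = 0.234, limma), but at 0.89 (adjusted p = 0.000277, limma) and 1.28 (adjusted p = 0.000225, limma) at its other probes, the last of which was called. Loxl1 was at -0.51 with an interval of -1.37 to 0.35, and its XEN-like arrays were not well above background.

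A ratio of 2 genes on the same array does not depend on how the array is scaled, and it was taken for the members that share an activity. The log2 ratio of P4ha1 over P4ha2, set to 0 at the mean of the Sox7 (+/-) ES arrays, was 0.04, -0.12 and 0.07 on those arrays and 0.47, 0.59 and 0.42 on the Sox7 (+/-) XEN-like arrays. It was 0.27, 0.16 and 0.21 on the Sox7 (-/-) ES arrays and -0.45, -0.75 and -0.80 on the Sox7 (-/-) XEN-like arrays. With Dex the mean of this ratio was 0.49 higher in Sox7 (+/-) cells and differed by -0.88 in Sox7 (-/-) cells, and no 2 of the groups compared overlapped. Between the XEN-like groups the ratio differed by -1.16. Plod1 over Plod3 was 0.06, -0.12 and 0.05 on the Sox7 (+/-) ES arrays, 0.09, -0.03 and 0.51 on the Sox7 (+/-) XEN-like arrays, 0.85, 0.80 and 0.66 on the Sox7 (-/-) ES arrays and -0.72, -0.65 and -0.68 on the Sox7 (-/-) XEN-like arrays. Its difference with Dex was 0.19 in Sox7 (+/-) cells, where the groups overlapped (exact permutation test, two-sided, p = 0.4, adjusted p = 0.425), and -1.45 in Sox7 (-/-) cells. The difference of Plod1 over Plod2 was -0.30 in Sox7 (+/-) cells, with overlap, and -1.64 in Sox7 (-/-) cells. That of Plod2 over Plod3 was 0.50 and 0.19. Loxl1 over Loxl2 could be read only in ES cells, where it was 1.31 higher without Sox7. Of 17 such differences, 14 had groups that did not overlap, each with p = 0.1 in a two-sided exact permutation test, the smallest p that 3 against 3 arrays can give, and 0.121 after Benjamini-Hochberg adjustment, so none passed 0.05. The 17 share genes and arrays, and the share of other gene pairs that separate in this way is not given here, so the count is only a description.

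**Figure D4:**
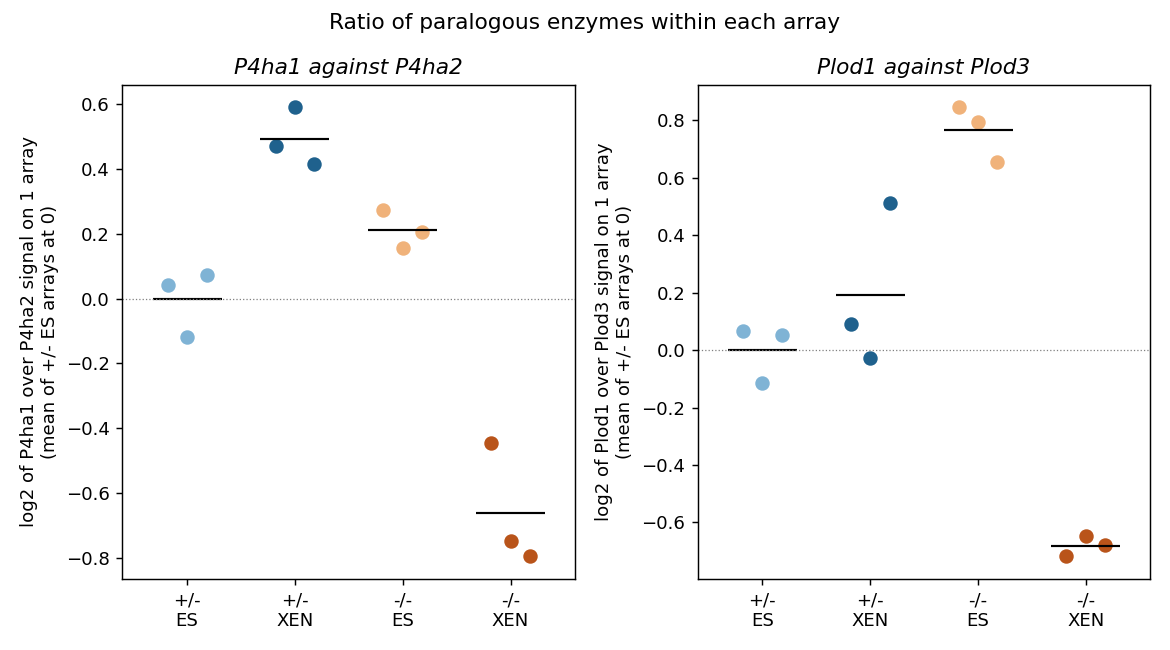
Log2 ratio of P4ha1 over P4ha2 and of Plod1 over Plod3 within each array, with the mean of the Sox7 (+/-) ES arrays at 0. Points are arrays and lines are means of 3: in both panels the Sox7 (-/-) XEN-like arrays are the lowest, at -0.45 to -0.80 and at -0.65 to -0.72.

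Other genes of collagen biosynthesis gave the setting for the members. Of 28 listed, 27 were on the array and 23 tested. With Dex, 11 rose and 3 fell in Sox7 (+/-) cells and 9 rose and 3 fell in Sox7 (-/-) cells, with medians of 0.81 and 0.74. Over all probes, 11.0% were called higher and 14.0% lower in Sox7 (+/-) cells, and 14.6% and 14.2% in Sox7 (-/-) cells. Scaled by the spike-ins, 4 rose and 4 fell in Sox7 (+/-) cells, where the calls over all probes went from 2851 higher and 3620 lower to 1262 higher and 5472 lower. Leprel4, the non-catalytic partner of Plod1 in the complex that modifies helical lysines, rose most in Sox7 (+/-) cells, by 2.97 (SE 0.08, adjusted p = 5.62e-10, limma), and also in Sox7 (-/-) cells, by 3.68 (SE 0.08, adjusted p = 9.41e-11, limma). Next in Sox7 (+/-) cells were the proline isomerases Fkbp14, at 2.75, and Fkbp7, at 2.01, and in Sox7 (-/-) cells the prolyl 3-hydroxylase Leprel1, at 3.16, and Bmp1, which trims procollagen, at 1.92. P4hb, the subunit that P4ha1 and P4ha2 need, rose by 1.35 and 1.91; it was named for this role, after its values were seen. The largest falls were those of Pcolce2, at -3.49 and -5.44, and Pcolce, at -2.55 and -3.52, which enhance the cutting of procollagen by Bmp1, and of the procollagen peptidase Adamts14, at -1.94 and -1.62. 1 of the 3 Sox7 (-/-) XEN-like arrays did not detect Pcolce2 above background. Between XEN-like cells, 3 of the 23 were called, where 3.65% of all probes were called lower and 3.86% higher. All 3 were lower without Sox7: Creb3l1, a transcription factor of secretory cells, at -1.51, Fkbp7 at -1.47 and Pcolce2 at -1.47. In the deposited table none of the 23 was called lower and 3 were called higher. The rise with Dex was smaller without Sox7 for Fkbp14 and Fkbp7, with differences of -1.63 and -1.24, and larger for Leprel1, by 1.36 (adjusted p = 5.7e-05, 7.37e-05 and 0.00427, limma).

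**Figure D5:**
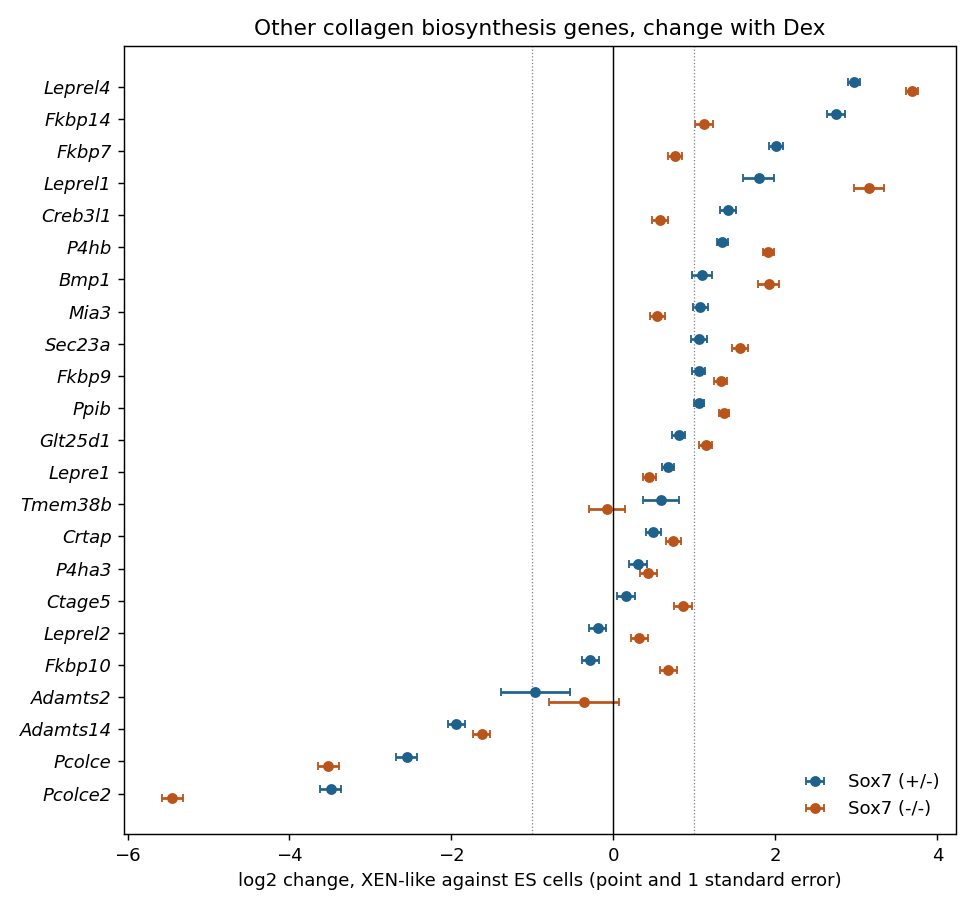
Log2 change with Dex of the 23 tested genes of the collagen biosynthesis list, other than the members, in Sox7 (+/-) and Sox7 (-/-) cells, with 1 standard error from limma. Dotted lines mark 2-fold: Leprel4 is at the top of both genotypes and Pcolce2 at the bottom, and Fkbp14 and Fkbp7 lie farther right in Sox7 (+/-) cells (2.75 and 2.01).

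The substrates were split as well. Of 44 collagen chain genes on the array 25 were tested. With Dex, 6 rose and 14 fell in Sox7 (+/-) cells and 6 rose and 12 fell in Sox7 (-/-) cells, with medians of -1.49 and -1.02. Of all tested probes, 11.0% were called higher and 14.0% lower in Sox7 (+/-) cells, and 14.6% and 14.2% in Sox7 (-/-) cells. The largest rises in Sox7 (+/-) cells were those of Col6a1, at 5.11, and Col27a1, at 3.43. The collagen IV chains Col4a1 and Col4a2 rose by 2.44 and 2.26 in Sox7 (+/-) cells and by 3.14 and 2.96 in Sox7 (-/-) cells. Those that fell were led by Col18a1 and Col1a1, which were not well above background on any Sox7 (+/-) XEN-like array, so that the size of the fall is not given. The same 2 comparisons of the chains gave 4 and 10 calls and 5 and 6 calls, higher and lower, in the deposited table. The medians of the chains were -0.73 and -0.39 there, and -0.22 and -0.31 with normexp background correction, so the size of the typical fall depended on the processing. Of 16 textbook targets of Hif1, set beside P4ha1, P4ha2, Plod2 and Lox, which are also known as targets, 3 rose and 2 fell in Sox7 (+/-) cells and 3 rose and 3 fell in Sox7 (-/-) cells, with medians of -0.00 and 0.25. These counts stand against the shares of all probes given for the chains, and they were not tested as a set. Ndrg1 rose in both genotypes, by 2.93 and 2.89, and Car9 fell in both and was not well above background on any XEN-like array. Between the XEN-like groups 1 of the 16 was called, where 3.65% of all probes were called lower and 3.86% higher. It was Ddit4, an inhibitor of mTOR signalling, at -2.06, beside -1.37 for P4ha1, -0.22 for P4ha2 and -0.15 for Plod2. The median of the 16 in this comparison was 0.06. With spike-in scaling and in the deposited table, 2 of the 16 were called higher and 1 lower, with medians of 0.31 and 0.48. The median of all probes moved by 0.25 and 0.34 there.

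Levels of most of the 8 tested members followed a common order, while P4ha1 and Plod1 followed it in part and Loxl1 stood higher in ES than in XEN-like cells. For Serpinh1, P4ha2, Plod2, Plod3 and Loxl2 the order from low to high was Sox7 (-/-) ES, Sox7 (+/-) ES and then the XEN-like groups, which differed by less than 2-fold. P4ha1 had the same order in ES cells but its Sox7 (-/-) XEN-like group lay between the ES groups and the Sox7 (+/-) XEN-like group, as did that of Plod1, whose ES groups did not differ beyond their spread. The range of the 4 group means was 4.48 for Loxl2, 3.30 for Plod2 and 2.34 for Plod1, and for Loxl1 it has only the bounds given above, since its XEN-like arrays were not well above background. The patterns of Loxl2 and Plod2 over the 4 groups were set against all tested genes by the root mean square difference of centred group means, as a description over 4 groups. Nearest to Loxl2 were Gpx3 (0.05), Snx33 (0.13) and Tek (0.18), and among those nearest to Plod2 were Col6a2 (0.06) and Col4a1 (0.08).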

How the data were processed

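RNA of 4 groups of cells, 3 samples each, had been hybridized to 12 one-colour arrays, and groups were taken from the sample labels. The authors deposited the intensity values of each array as the output of Agilent Feature Extraction 10.7.3.1, per the submitters' processing notes and the file headers, with a processed signal that is background-subtracted but not scaled between arrays, and 1 table of intensity values whose entries lay within 0.498% of the mean spot signal. From these, each processed signal was divided by its array's 75th percentile over the 59305 spots besides controls and put on the log2 scale, spots with an outlier flag (139 to 190 per array, none of a member) were left out, and spots of 1 probe were averaged. Because flags removed every spot of 129 probes on some array, 41 tested probes were fitted with fewer arrays, none of them of a member. A probe was tested if every array of 1 or more groups had it well above background, and the 25940 such probes went into 1 fit of limma 3.58.1 (R 4.3.3) with a mean for each of the 4 groups, and the p-values were adjusted over all of them by Benjamini-Hochberg. Prior degrees of freedom were 1.987 and residual ones 8. Python 3.11.15 and matplotlib 3.10.9 made the figures.

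The members and the gene lists were chosen with earlier results of these data known. All 10 members were described. From the other lists, up to 3 called genes were named in each direction by size of change, and for the 3 members with the widest range of group means the 3 genes nearest in pattern, of which 1 is not reported here and those of Loxl1 are left out, since 2 of its 4 group means lay at background. The fibroblast, visceral and parietal endoderm markers stand beside the results, and the 4 endothelial markers gave 1 higher and none lower with Dex in Sox7 (+/-) cells and 1 higher and 2 lower in Sox7 (-/-) cells. A ratio of 2 genes was tested by an exact permutation over arrays. The fit was tested on simulated data for the comparison of the XEN-like groups. It recovered 86 of 100 probes shifted by 1.5 and 98 of 100 shifted by 2.5 on the log2 scale, with 1 false call. Replicate r across probes was 0.982 to 0.996. Replicate numbers did not pair the samples, since deviations from the group mean correlated by only -0.051 to 0.126 among arrays that share a number. The number of arrays limits the precision. The 14 alternatives, besides leaving out each array, were normexp background correction, 3 other scalings, the deposited table, 2 other filters, the mean of a gene's probes, a replicate block, a fit to the compared arrays alone, a variance trend with intensity, a fixed and a random slide block, and no minimum fold. The study's NIA Array Analysis was not used here.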

Additional observations from a re-analysis of the deposited data

Results flagged for a closer look

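The difference in the change with Dex between the genotypes, Sox7 (-/-) minus Sox7 (+/-), passed an adjusted p of 0.05 in limma at 10 probes of 7 members, and 1 of these also passed 2-fold. By the adjusted p alone, 12.3% of all probes were higher and 14.9% lower. The change was larger without Sox7 for Serpinh1 (0.72), P4ha2 (0.65), Plod2 (0.51) and Plod3 (0.82) and for the other probes of Loxl2 (0.89 and 1.28). It was smaller for P4ha1 at both probes (-0.71 and -0.63) and for Plod1 at both tested probes (-0.82 and -0.63). P4ha1 and Plod1, at their brightest probes, missed the threshold under spike-in scaling (adjusted p = 0.341 and 0.101, limma) and in the deposited table (adjusted p = 0.424 and 0.304, limma). With 3 arrays in a group, single arrays that stand apart were not tested for.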

How the results depend on the processing

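Over the 14 alternatives and leaving out each array, 7 members rose with Dex in both genotypes and 1, Loxl1, fell, with 1 exception: with only probes well above background on all arrays, Loxl1 was not tested and 0 members were lower. With a replicate block the calls stayed 7 higher and 1 lower in each genotype, 1 lower (P4ha1) in XEN-like cells, and 0 elsewhere, and it changed no member's call. Between XEN-like cells, the 1 call, P4ha1, was lost in the deposited table (0 lower, P4ha1 at -0.92), and 3 were lower with no minimum fold. In ES cells 2 members were lower by quantile normalization and by spike-in scaling, 1 by the mean of a gene's probes and with slide as a block, 6 with no minimum fold, and 0 to 1 when each array was left out, with 1 (Loxl2) without Sox7 (-/-) ES array 1. The difference in response was called higher for 4 members by spike-in scaling and 3 in the deposited table. With no minimum fold, and arrays scaled by the 75th percentile, it was 4 higher and 2 lower.

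Small differences changed sign. Between XEN-like cells, Serpinh1 was at 0.13 by normexp, 0.11 by quantile, 0.25 by spike-in scaling, 0.47 in the deposited table, 0.022 with slide as a block and -0.019 to 0.022 when each array was left out. By spike-in scaling and in the deposited table, P4ha2 was at 0.037 and 0.26, Plod2 at 0.10 and 0.30 and Loxl1 at 0.10 and 0.21, and Loxl2 was at 0.057 in the deposited table. Loxl1 ranged from -0.51 to 0.12 when each array was left out. Plod1 in ES cells was at -0.086 by spike-in scaling and at -0.090 by the mean of its probes. Spike-in scaling shifts all probes of an array alike, and relative to the median of all probes it left these values unchanged. Between XEN-like cells they were -0.005 for Serpinh1, -0.22 for P4ha2, -0.15 for Plod2 and -0.15 for Loxl1 with either scaling. For Plod1 in ES cells the value was -0.029 with either. The cause of the sign changes in other settings was not tested. The fall of Loxl1 with Dex ranged from -4.42 to -1.23 in Sox7 (+/-) cells and from -4.63 to -1.68 in Sox7 (-/-) cells over the alternatives, and its XEN-like arrays were not well above background.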
